A study of Mus musculus with 8 samples.

Results

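Lymphocyte RNA was examined in primary mouse osteosarcomas, malignant tumours of bone-forming cells, through 31 genes of T cells, natural killer (NK) cells and B cells. The members were listed by name, 21 of T and NK cells and 10 of B cells, and each was read by the probe set that carries its symbol alone. Of the 31, 30 were measured among 19938 genes, 20 of T and NK cells and 10 of B cells; Lck was not analysed here. Each of the 30 was read by 1 probe set, and the tests reported here used no filter on low values, so all 30 entered them.

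The 8 tumours came from C57Bl6 mice. The 4 shRNA OS tumours carried the p53 short hairpin P53.1224. Of these, replicates 1 and 3 (tibia, Rbfl/+) and replicate 4 (humerus, Rbfl/+) had 1 floxed Rb allele, and replicate 2 (tibia) was Rb+/+. The 4 Cre:lox OS tumours carried P53fl/fl. Replicate 1 of these (scapula) was Rb+/+, and replicate 2 (humerus) and replicates 3 and 4 (tibia) were Rbfl/+. No tumour without the p53 hairpin or the floxed p53 alleles and no normal bone was among the samples. The sources used here do not give the promoters that drive Cre and the hairpin, or the sex and age of the mice. Each tumour is a separate sample, so p-values measure the spread between tumours.

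T cells read antigen through a receptor whose signal passes through the CD3 chains, and they carry either the CD4 or the CD8 coreceptor. NK cells and cytotoxic T cells kill by releasing perforin and granzymes. B cells arise in the bone marrow, where their precursors cut and join immunoglobulin genes with the RAG recombinase and test the new heavy chain with a surrogate light chain. Bone encloses marrow, where such precursors are found.

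Values are log2 expression values, given in the order of the replicate numbers, and levels of different probe sets cannot be compared. No detection call was analysed here, so a background level was taken on each array from 1194 olfactory and vomeronasal receptor genes. Their median was 4.93, 5.95, 5.11 and 5.19 in shRNA OS and 5.001, 5.05, 5.54 and 4.87 in Cre:lox OS. It was thus highest in shRNA OS replicate 2 and next in Cre:lox OS replicate 3. A member was called above background where its value passed the 95th percentile of the receptor genes on the same array. That percentile lay between 6.32 and 7.45. Probes differ in response, so the call is a description. The array of shRNA OS replicate 2 also had the lowest mean correlation with the other arrays, 0.941 against 0.961 to 0.968. The bone-forming identity of the tissue was plain: the osteoblast genes Sp7, Col1a1, Alpl and Ibsp were above background in all 8 tumours, with Col1a1 between 13.00 and 13.61.

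Of the 30 members, 20 (66.7%) were above background in at least 1 tumour, close to the 72.9% of all genes, 10 were in none, and 0 were in all 8, against 47.6% of all genes. With the 99th percentile of the receptor genes in place of the 95th, 9 members passed in at least 1 tumour, against 61.7% of all genes. The 20 comprised 14 T and NK members and 6 B members. No member passed in shRNA OS replicate 2, and Cd3e, Cd5, Prf1, Cd79b, Blnk and Igll1 were above background in all 7 other tumours. Counted by tumour, 18, 0, 9 and 8 members were above background in shRNA OS and 12, 8, 7 and 17 in Cre:lox OS. The tumours with most members above background were shRNA OS replicate 1 and Cre:lox OS replicate 4, both tibial and from different models. These counts went with the arrays: over all genes the share above background was 69.0%, 48.8%, 65.0% and 63.6% in shRNA OS and 67.3%, 67.0%, 59.2% and 69.0% in Cre:lox OS. The same pair of arrays had the highest shares and the lowest background levels, at 6.48 and 6.32, and shRNA OS replicate 2, with 0 members, had the highest. The part of the array level in these counts was not tested. Ptprc, which encodes the leukocyte antigen CD45, was above background in all 8 tumours at 8.66 to 10.28. In bulk tissue, fewer cells of a type and less RNA per cell cannot be told apart.

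**Figure D1:**
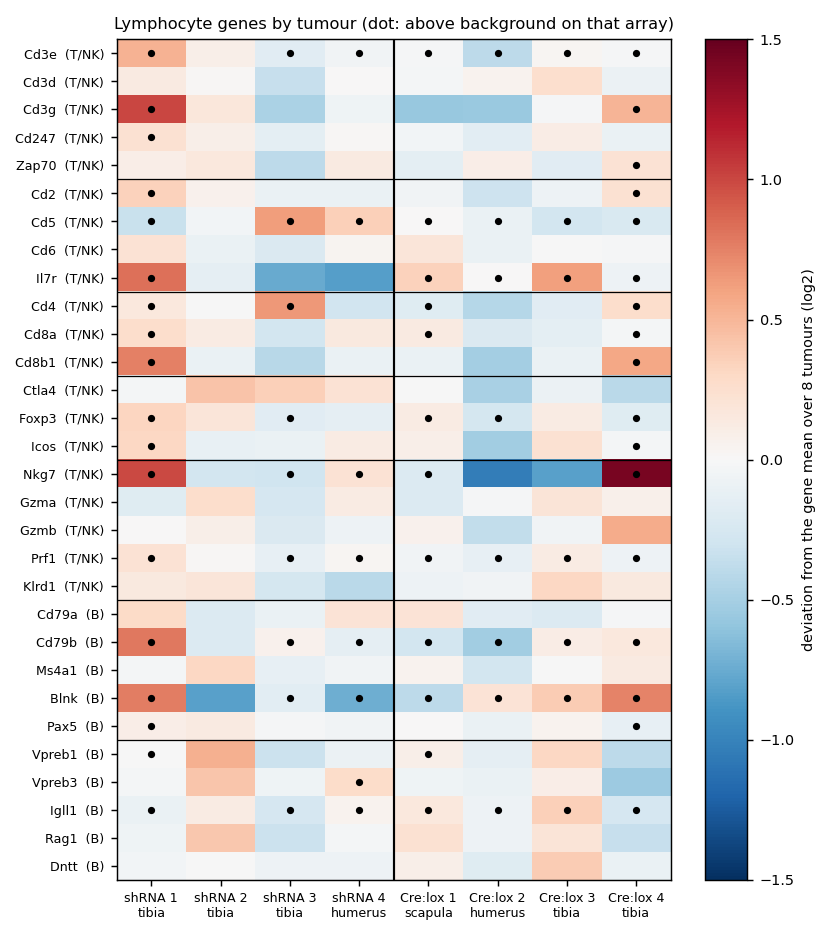
Rows are the 30 measured members, T and NK above B, and columns are the 8 tumours, shRNA OS left of Cre:lox OS; colour is the deviation from the gene's mean over 8 tumours (log2), and a dot marks a value above background on that array. Dots are most frequent in shRNA OS replicate 1 (18) and Cre:lox OS replicate 4 (17) and absent in shRNA OS replicate 2.

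Genes of the T cell receptor complex varied most in Cd3g. Cd3g encodes the CD3 gamma chain. Its values were 7.19, 6.36, 5.72 and 6.12 in shRNA OS and 5.63, 5.63, 6.17 and 6.70 in Cre:lox OS. It was highest in shRNA OS replicate 1 and Cre:lox OS replicate 4, the only tumours in which it was above background, and the models overlapped. Cd3e, the CD3 epsilon chain, read 7.83, 7.40, 7.14 and 7.25 in shRNA OS and 7.29, 6.92, 7.34 and 7.29 in Cre:lox OS. It was above background in 7 tumours and highest in shRNA OS replicate 1. Cd3d, the CD3 delta chain, stayed between 5.26 and 5.86 and below background in all 8, although all 3 CD3 genes lie on chromosome 9. Over the 8 tumours Cd3g had a Pearson correlation of 0.84 with Cd3e and 0.35 with Cd3d; these values share arrays and are a description. Cd247, the CD3 zeta chain, was above background only in shRNA OS replicate 1 (6.61), and the receptor-proximal kinase gene Zap70 only in Cre:lox OS replicate 4 (6.55).

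The coreceptor genes followed the same tumours in part. Cd8b1, the CD8 beta chain of cytotoxic T cells, had values of 7.28, 6.43, 6.11 and 6.43 in shRNA OS and 6.44, 6.03, 6.43 and 7.12 in Cre:lox OS. As with Cd3g, it was above background only in shRNA OS replicate 1 and Cre:lox OS replicate 4, and its correlation with Cd3g was 0.91. Cd8a, the CD8 alpha chain, ranged less, between 6.26 and 6.79, and was above background in 3 tumours, those same ones and Cre:lox OS replicate 1. Cd4, the coreceptor of helper T cells, was highest in another tumour, with 6.995, 6.83, 7.50 and 6.56 in shRNA OS and 6.66, 6.42, 6.67 and 7.11 in Cre:lox OS.

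Cytotoxic granule and NK genes were led by Nkg7, which encodes a granule membrane protein of NK and cytotoxic T cells. It showed the widest range of all 30 members, 2.46 on the log2 scale. Nkg7 read 7.94, 6.68, 6.65 and 7.17 in shRNA OS and 6.75, 5.91, 6.14 and 8.37 in Cre:lox OS. Cre:lox OS thus held its highest and its lowest value. Prf1, which encodes the pore-forming protein perforin, was above background in 7 tumours but ranged only between 7.15 and 7.49. Gzma, Gzmb and Klrd1, which encode granzymes A and B and the NK receptor chain CD94, were below background in all 8 tumours. Of these, Gzmb was highest in Cre:lox OS replicate 4, at 6.23 against 5.30 to 5.76 in the other 7, which was 0.087 below the background level of its array.

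Among 30 members, 6 had shRNA OS replicate 1 and Cre:lox OS replicate 4 as their highest tumours: Cd3g, Cd2, Cd8b1, Nkg7, Cd79b and Blnk. Over all 19938 genes this held for 3.68%. It held for 3 of 8 genes of all leukocytes, 3 of 10 macrophage genes and 2 of 5 MHC class II genes. Among other lymphocyte genes it held for 5 of 26 T and NK genes and 3 of 17 B and plasma cell genes. Of these, Cd27, Txk and Gzmk were above background in no tumour. Granulocyte precursor genes gave 1 of 9, and erythroid, skeletal muscle and osteoblast genes 0 of 4, 0 of 7 and 0 of 4. The pattern was therefore present in some other lists too. Counted singly, the highest tumour of a member was a given shRNA OS tumour for 14, 7, 2 and 0 members and a given Cre:lox OS tumour for 0, 0, 4 and 3. The shares of all genes were 10.9%, 21.4%, 8.24% and 10.8% in shRNA OS and 9.11%, 13.4%, 12.8% and 13.2% in Cre:lox OS. The pair was singled out after the values were seen, so the count is a description. These tumours also had high macrophage genes: the mean deviation of 10 macrophage genes from their means over 8 tumours was 0.46 in shRNA OS replicate 1 and 0.65 in Cre:lox OS replicate 4, but it was 0.65 in Cre:lox OS replicate 3 too, where Nkg7 was 6.14. The part of the macrophage content in the lymphocyte values was not tested.

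The stretches upstream of Nkg7 and Cd3g, which were high in the same tumours, are shown with those of Vpreb1 and Igll1, the surrogate light chain genes described below, which were not. Each holds the 250 bases before the RefSeq gene start of GRCm38.p6, with the gene's own strand 5′ to 3′. Capitals mark matches on either strand to TGTGGT (RUNX), AGGTGT (T-box), CCCNNGGG (EBF) and CANNTG (E-box), of which T-box and E-box letters can overlap. These factors are known from T, NK and B cell development.
Nkg7, chr7:43436888-43437137, plus strand: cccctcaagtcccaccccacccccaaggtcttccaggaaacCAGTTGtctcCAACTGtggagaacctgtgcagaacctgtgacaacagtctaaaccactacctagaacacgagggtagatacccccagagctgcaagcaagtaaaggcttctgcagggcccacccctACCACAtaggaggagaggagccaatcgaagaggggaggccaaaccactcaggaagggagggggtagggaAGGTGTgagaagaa
Cd3g, chr9:44980432-44980681, minus strand: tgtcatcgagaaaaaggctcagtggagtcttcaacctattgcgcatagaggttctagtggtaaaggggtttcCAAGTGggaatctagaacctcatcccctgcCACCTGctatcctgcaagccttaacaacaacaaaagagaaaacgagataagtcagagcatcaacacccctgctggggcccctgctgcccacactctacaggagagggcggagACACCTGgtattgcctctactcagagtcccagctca
Vpreb1, chr16:16869256-16869505, minus strand: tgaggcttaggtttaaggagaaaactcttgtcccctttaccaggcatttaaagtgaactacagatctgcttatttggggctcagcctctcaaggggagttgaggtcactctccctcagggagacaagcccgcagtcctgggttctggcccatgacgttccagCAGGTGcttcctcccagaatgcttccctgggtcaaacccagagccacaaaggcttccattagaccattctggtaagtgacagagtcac
Igll1, chr16:16863986-16864235, minus strand: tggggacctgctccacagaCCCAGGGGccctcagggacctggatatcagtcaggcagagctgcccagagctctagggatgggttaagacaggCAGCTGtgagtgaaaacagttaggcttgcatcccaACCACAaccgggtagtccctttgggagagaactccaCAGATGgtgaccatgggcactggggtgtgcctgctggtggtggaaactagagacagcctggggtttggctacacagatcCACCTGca

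The T-box letters were present before Nkg7 and Cd3g and not in the windows of Vpreb1 and Igll1, and the EBF letters were present only before Igll1 among these 4. In Cd3g the T-box match overlaps an E-box match. Of the 30 members 22 had a window, 14 of T and NK cells and 8 of B cells. T-box letters were found in 8 of the 14 and 1 of the 8, against 11.8% of all 32851 windows. They also preceded Cd3d, Gzma and Ctla4, which were below background in every tumour, and Cd5, which was lowest in shRNA OS replicate 1. Cd2, Cd8b1 and Cd79b, which were high in the same tumours as Nkg7 and Cd3g, had no window. RUNX letters were found in 4 of the 14 and 3 of the 8, against 14.0% of all windows. EBF letters were found in 1 of the 14 and 1 of the 8, against 11.8%, and E-box letters in all 22, against 66.2%. A match of letters is not a binding site, and the motifs were chosen with expression results known.

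**Figure D2:**
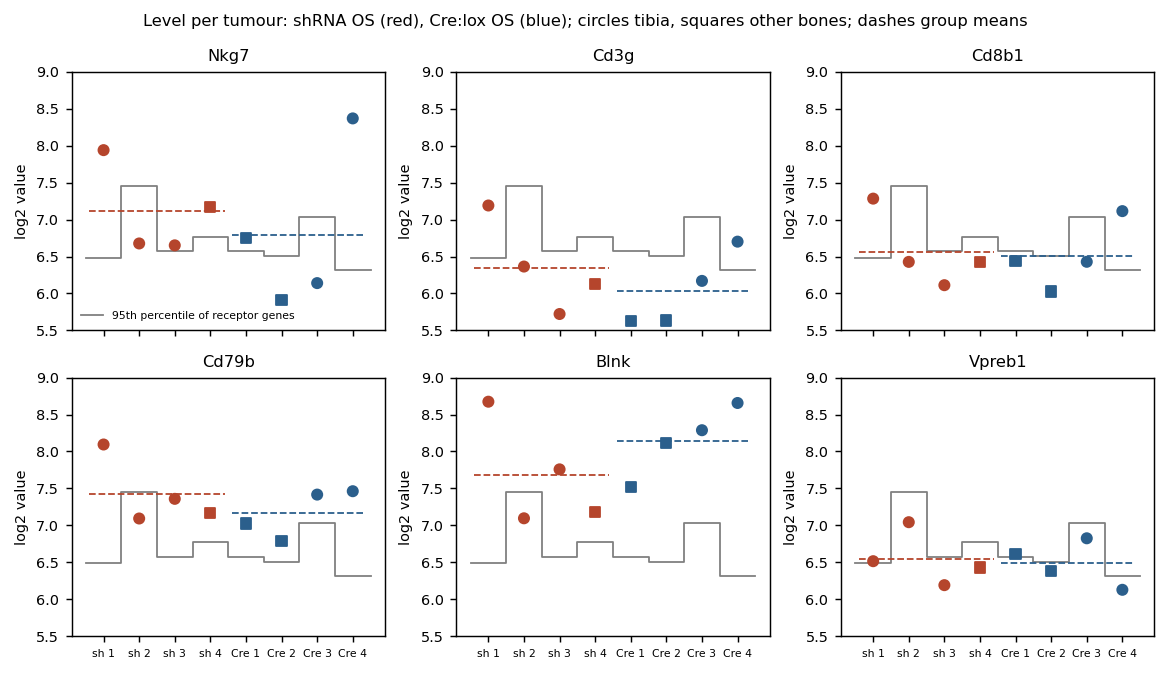
Log2 value of 6 members in each tumour, with shRNA OS (red, sh) left of Cre:lox OS (blue, Cre); circles are tibial tumours, squares other bones, dashed lines group means, and the grey step is the 95th percentile of the receptor genes on each array. Nkg7, Cd3g and Cd8b1 are highest in shRNA OS replicate 1 and Cre:lox OS replicate 4, whereas Vpreb1 passes the grey step by 0.031 at most.

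T cell surface genes did not move as a block. Il7r, the interleukin 7 receptor chain used by T cells and by B precursors, had 7.67, 6.71, 6.08 and 6.02 in shRNA OS and 7.19, 6.85, 7.46 and 6.77 in Cre:lox OS. Its shRNA OS values spread from the highest to the lowest of all 8. Cd5, an inhibitory coreceptor of T cells, went the other way, with 7.05, 7.35, 8.02 and 7.75 in shRNA OS and 7.39, 7.29, 7.11 and 7.16 in Cre:lox OS. It was lowest in shRNA OS replicate 1, where most T and NK members were highest, and its correlation with Ptprc was -0.78 over the 8 tumours. Cd2, an adhesion receptor of T and NK cells, reached background only in shRNA OS replicate 1 (6.64) and Cre:lox OS replicate 4 (6.53), and Cd6 in none.

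Genes of costimulation and regulatory T cells differed in how often they passed background. Foxp3, the transcription factor of regulatory T cells, lay between 6.60 and 7.18 and was above background in 5 tumours. These included its lowest value, in Cre:lox OS replicate 2, but not the 7.05 of shRNA OS replicate 2. Icos, a costimulatory receptor, was above background in shRNA OS replicate 1 (6.79) and Cre:lox OS replicate 4 (6.45). The background level was lowest on the array of Cre:lox OS replicate 4, at 6.32. Icos read higher in Cre:lox OS replicates 3 (6.71) and 1 (6.57) and shRNA OS replicate 4 (6.60), below the levels of those arrays. Ctla4, an inhibitory receptor of activated and regulatory T cells, was above background in no tumour.

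B cell genes divided into members with signal and members without. Cd79b, which encodes the Ig-beta signalling chain of the B cell receptor, read 8.09, 7.09, 7.36 and 7.16 in shRNA OS and 7.02, 6.78, 7.42 and 7.46 in Cre:lox OS. It was above background in all tumours but shRNA OS replicate 2. Its partner Cd79a, the Ig-alpha chain, was below background in all 8 at 4.66 to 5.16, and so was Ms4a1, the CD20 gene, at 4.85 to 5.43. Blnk, an adaptor of B cell receptor signalling that macrophages also express, had 8.67, 7.09, 7.76 and 7.18 in shRNA OS and 7.52, 8.11, 8.29 and 8.66 in Cre:lox OS. Blnk had a correlation of 0.94 with the macrophage mean and 0.88 with Ptprc, over arrays that both measures share. Pax5, the transcription factor that fixes B identity, ranged over only 0.25, from 6.42 to 6.67.

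The B precursor members gave no tumour a clear signal. Igll1, the lambda 5 part of the surrogate light chain, was above background in 7 tumours, by at most 0.53, with 6.86, 7.07, 6.70 and 7.01 in shRNA OS and 7.11, 6.87, 7.31 and 6.70 in Cre:lox OS. Vpreb1, its VpreB part, passed background by 0.031 in shRNA OS replicate 1 and Cre:lox OS replicate 1, with 6.51, 7.04, 6.19 and 6.43 in shRNA OS and 6.61, 6.38, 6.82 and 6.13 in Cre:lox OS. Vpreb1 resembles Vpreb2 closely in sequence, so which copy was read is uncertain. Vpreb2 itself, a surrogate light chain gene outside the members, was above background in all 8 tumours, between 7.18 and 7.98. It was highest in shRNA OS replicate 2 (7.98) and next in Cre:lox OS replicate 3 (7.82), the arrays whose receptor genes read highest. Vpreb3 passed by 0.0042 in shRNA OS replicate 4 alone. Rag1, a subunit of the RAG recombinase, and Dntt, the terminal transferase that adds bases at joins, were below background in all 8.

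Several B precursor genes went with the receptor-gene level of the array. Vpreb1, Vpreb3 and Rag1 were highest in shRNA OS replicate 2, and Igll1 and Dntt were highest in Cre:lox OS replicate 3, the arrays whose receptor genes read highest. Correlations with the receptor-gene median over the 8 arrays were 0.84 for Vpreb1, 0.77 for Vpreb3, 0.73 for Rag1, 0.60 for Igll1 and 0.42 for Dntt. Members outside the precursor group reached like values, with 0.70 for Gzma, 0.61 for Pax5, 0.56 for Ctla4 and 0.55 for Ms4a1. Over the other members the values went down to -0.58 for Cd79a, with -0.46 for Nkg7, -0.052 for Cd3g and -0.25 for Cd79b.

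**Figure D3:**
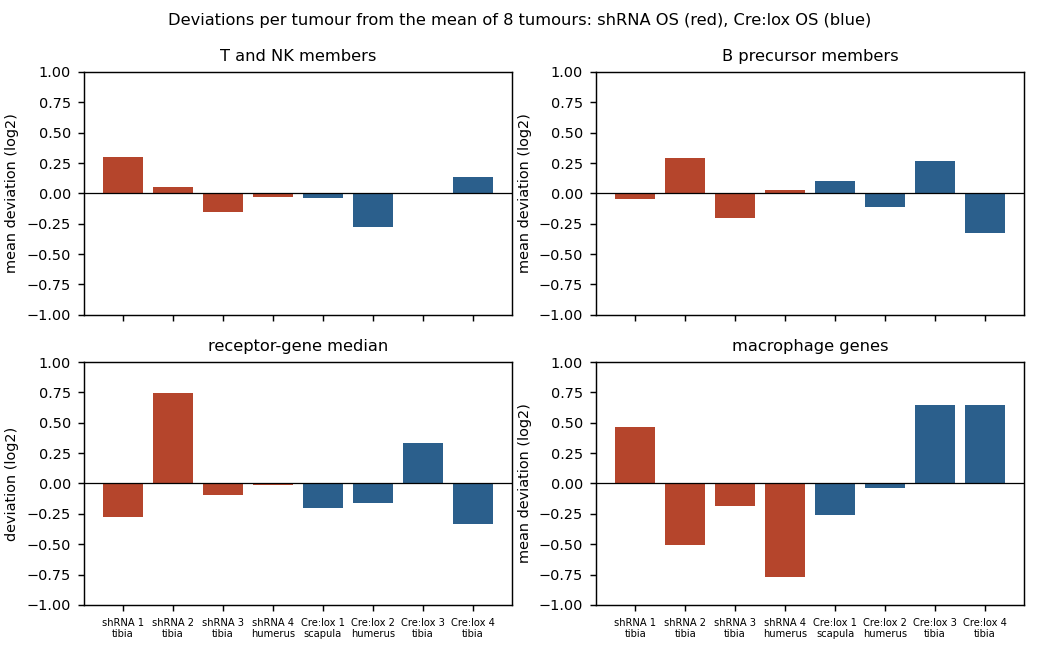
Bars give the mean deviation per tumour from the mean over 8 tumours (log2) for the T and NK members, the 5 B precursor members and 10 macrophage genes, and the deviation of the receptor-gene median; shRNA OS is red and left of Cre:lox OS in blue. The precursor members and the receptor-gene median are both highest in shRNA OS replicate 2, at 0.29 and 0.75.

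T and NK members were set against B members as the mean deviation of each class from its genes' means over 8 tumours. The T and NK mean was 0.30, 0.056, -0.15 and -0.032 in shRNA OS and -0.035, -0.27, 0.0025 and 0.14 in Cre:lox OS. The B mean was 0.17, 0.069, -0.14 and -0.063 in shRNA OS and 0.011, -0.14, 0.17 and -0.073 in Cre:lox OS. The T and NK mean was highest in shRNA OS replicate 1 and lowest in Cre:lox OS replicate 2. The B mean had the same extremes only narrowly. It was 0.1697 against 0.1667 in Cre:lox OS replicate 3, and -0.1432 against -0.1377 in shRNA OS replicate 3. With each array's receptor-gene median subtracted, both classes were lowest in shRNA OS replicate 2, at -0.69 and -0.68. Without that subtraction, the correlation of the T and NK mean with the B mean over 8 tumours was 0.70. Single members went together less: the median correlation was 0.36 over 190 pairs of T and NK members, 0.24 over 45 pairs of B members and 0.28 over 200 pairs across the classes. The T and NK mean had a correlation of 0.91 with the mean of 5 MHC class II genes, which was 0.47 without the 2 tumours farthest from the median of that mean, and of 0.42 with the macrophage mean. All are over the same 8 arrays. The difference, T and NK minus B, was 0.13, -0.014, -0.015 and 0.031 in shRNA OS and -0.046, -0.13, -0.16 and 0.21 in Cre:lox OS. By these means the 2 Cre:lox OS tibial tumours held the extremes, replicate 4 the highest and replicate 3 the lowest. With medians over the members, Cre:lox OS replicate 3 was again lowest at -0.17, but shRNA OS replicate 1 was highest at 0.24 and Cre:lox OS replicate 4 was 0.085.

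Between the models, no member passed limma's test over all genes. In shRNA OS 20 members averaged higher and 10 lower, with a median difference of 0.074, beside 0.0090 over all 19938 genes, of which 0.0201% passed. The receptor genes used for the background had a median difference of 0.16. Of these 1194 genes, 1049 averaged higher in shRNA OS, as did 10351 of all 19938 genes. At an unadjusted p under 0.05 stood 1 of 30 members, against 9.63% of all genes (3.61% higher and 6.02% lower). It was Ctla4, with 6.10, 6.55, 6.49 and 6.34 in shRNA OS and 6.12, 5.65, 6.04 and 5.72 in Cre:lox OS. The models overlapped, since shRNA OS replicate 1 lay just below Cre:lox OS replicate 1. Its difference was 0.49 (SE 0.16), with limma's adjusted p of 0.374, and all its values were below the background level.

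By role, 4 of 5 genes of the T cell receptor complex, 3 of 3 coreceptor genes and 3 of 3 genes of costimulation and regulatory T cells averaged higher in shRNA OS, with median differences of 0.093, 0.13 and 0.11. The T cell surface genes were split, 2 higher and 2 lower, with a median of 0.039. Of the cytotoxic and NK genes, 2 averaged higher and 3 lower, with a median of -0.025. The 3 lower genes, Gzma, Gzmb and Klrd1, were above background in no tumour. Among B members 4 of 5 receptor signalling genes averaged higher, with a median of 0.079, but only 2 of 5 precursor genes did. These medians lie below that of the receptor genes.

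Of the 30 members, 0 separated the models, against 5.44% of all genes (2.0% higher and 3.44% lower). Nkg7 averaged 7.11 ± 0.60 in shRNA OS and 6.79 ± 1.11 in Cre:lox OS (SD, n = 4 each), a difference of 0.32 with a 95% interval of -0.83 to 1.46. Cd3g averaged 6.35 ± 0.62 in shRNA OS and 6.03 ± 0.51 in Cre:lox OS (SD, n = 4 each), with an interval of -0.44 to 1.07 for the difference of 0.32. Blnk was 0.47 lower on average in shRNA OS, with an interval of -1.27 to 0.34. For Cd79b the interval was -0.30 to 0.81, and for Igll1 it was -0.45 to 0.28. All of these intervals span differences in both directions. The difference of Nkg7 was 0.041 without shRNA OS replicate 1, 0.84 without Cre:lox OS replicate 4 and -0.17 in tibial tumours only. Macrophage genes differed in mean in 1 direction: all 10 were lower in shRNA OS, with a median of -0.30, and Itgam, an integrin chain of myeloid cells, had the smallest p (-1.03, SE 0.40, limma adjusted p = 0.446). Of 8 genes of all leukocytes 7 averaged lower, among them Cd53 (-0.79, SE 0.34, adjusted p = 0.504). All 5 MHC class II genes averaged higher, with a median of 0.88, among them Cd74, the invariant chain (1.33, SE 0.45, adjusted p = 0.389). All 7 skeletal muscle genes averaged lower, among them the myosin light chain gene Myl1 (-1.82, SE 0.87, adjusted p = 0.550). Of 4 osteoblast genes 3 averaged higher, among them Sp7 (0.54, SE 0.21, adjusted p = 0.449). None of these genes passed, and their part in the lymphocyte values was not tested.

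**Figure D4:**
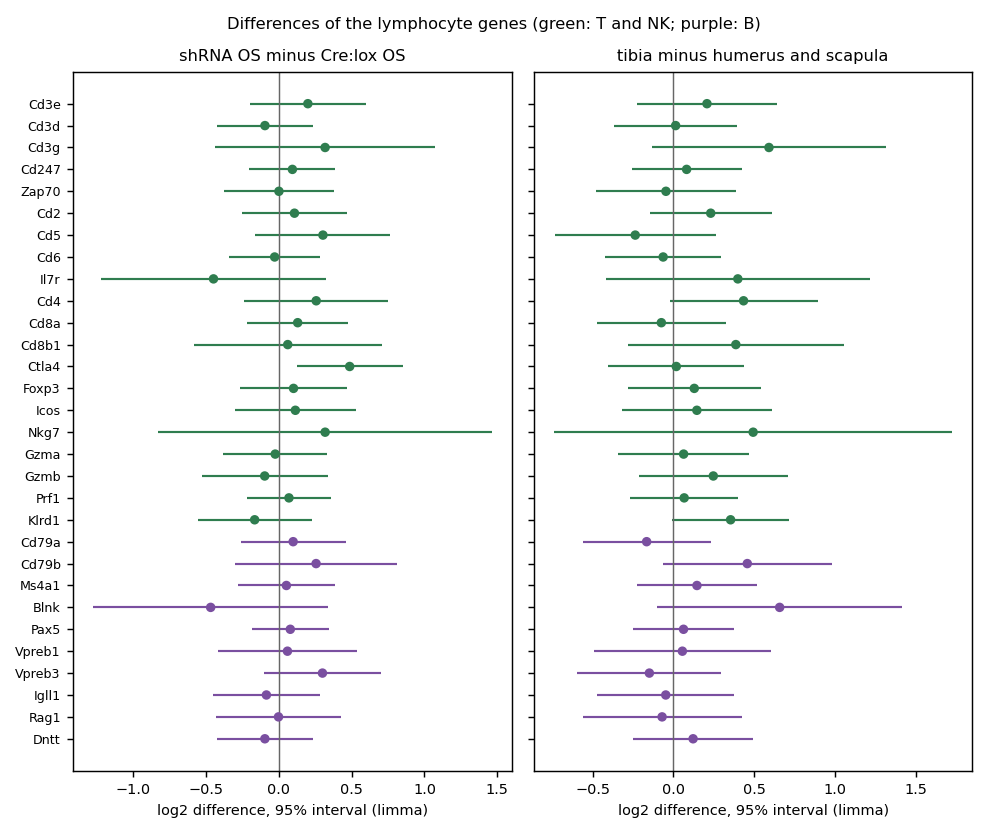
Points are log2 differences of the 30 members and lines their 95% intervals from limma, shRNA OS minus Cre:lox OS on the left and tibia minus humerus and scapula on the right, with T and NK members in green and B members in purple. The interval of Ctla4 between the models, 0.12 to 0.85, is the only one that leaves out 0 before adjustment.

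By bone, 5 tibial tumours were set against 3 from the humerus or scapula in a fit that held the model as a covariate. Here 22 members had higher and 8 lower means in tibial tumours, with a median difference of 0.10 beside -0.025 over all genes, and the receptor genes stood at 0.14. The difference was positive for 8875 of all 19938 genes and for 1003 of the 1194 receptor genes. With limma 0 of 30 passed over all genes, as did 0.0% of all genes, and 0 of 30 reached an unadjusted p under 0.05, against 5.64% (2.32% higher and 3.33% lower). The smallest p belonged to Klrd1, with a difference of 0.35 (SE 0.16, adjusted p = 0.898), all below background.

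By role, all 5 cytotoxic and NK genes averaged higher in tibial tumours, with differences from 0.063 to 0.49 and a median of 0.25. Of these, Gzma, Gzmb and Klrd1 were below background in all 8 tumours, and the median is the difference of Gzmb. The T cell surface genes were split, 2 higher and 2 lower, with a median of 0.083. The medians were 0.081 for the T cell receptor complex, 0.39 for the coreceptors, 0.145 for B receptor signalling and -0.048 for the B precursor genes. All 3 genes of costimulation and regulatory T cells averaged higher, with a median of 0.129. Only the coreceptors, the cytotoxic and NK genes and, narrowly, B receptor signalling had medians above the 0.139 of the receptor genes. None of these genes passed, so the counts describe means only.

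Cd4 was the 1 member of 30 whose sites did not overlap, against 2.6% of all genes (0.607% higher and 2.0% lower). The 5 tibial tumours read 6.995, 6.83 and 7.50 for shRNA OS and 6.67 and 7.11 for Cre:lox OS, against 6.56 for the shRNA OS humerus and 6.66 and 6.42 for the Cre:lox OS scapula and humerus. The nearest tumours of the 2 sites, Cre:lox OS replicates 3 and 1, differed by less than 0.01. Cd4 was above background in only 4 tumours: shRNA OS replicates 1 and 3 and Cre:lox OS replicates 1 and 4. Of the nearest tumours, tibial Cre:lox OS replicate 3 was 0.37 below the background level of its array. The scapula tumour, Cre:lox OS replicate 1, was 0.087 above that of its own. The difference was 0.43 (SE 0.20), with limma's adjusted p of 0.908. Larger differences were those of Blnk (0.66, interval -0.10 to 1.42), Cd3g (0.59, interval -0.13 to 1.31), Nkg7 (0.49, interval -0.74 to 1.73) and Cd79b (0.46, interval -0.068 to 0.98). The site difference of Nkg7 was -0.13 without Cre:lox OS replicate 4.

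Gene lists of other cell types were compared by bone as well. Of 10 macrophage genes 9 had higher means in tibial tumours, with a median difference of 0.75, of which Aif1 (1.16, SE 0.31, limma adjusted p = 0.691) had the smallest p. Of 8 genes of all leukocytes 6 were higher on average, with Ptprc at 0.88 (SE 0.25, adjusted p = 0.691). All 5 MHC class II genes averaged higher in tibial tumours, with a median of 0.89, among them H2-Ab1 (1.09, SE 0.46, adjusted p = 0.856). All 7 skeletal muscle genes averaged higher too, with a median of 0.68, among them Myl1 (1.43, SE 0.83, adjusted p = 0.952). All 4 osteoblast genes averaged lower, with a median of -0.37, among them Alpl (-0.45, SE 0.19, adjusted p = 0.867). No gene of these lists passed, and their part in the lymphocyte values was not tested.

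Further lymphocyte genes outside the members were tested as well. Of 26 other T and NK genes 0 passed in either comparison, and 13 were above background in no tumour. Havcr2, the inhibitory receptor TIM-3, which myeloid cells also carry, had the smallest p between models (-0.73, SE 0.28, limma adjusted p = 0.441), and Lef1, a Wnt-pathway transcription factor of T cells and other tissues, between sites (1.00, SE 0.31, adjusted p = 0.697). Of 17 other B and plasma cell genes 0 passed as well. Ebf1, a transcription factor of B precursors that mesenchymal cells also use, led between models (0.89, SE 0.30, adjusted p = 0.386), and Sdc1, the syndecan of plasma and epithelial cells, between sites (0.56, SE 0.21, adjusted p = 0.805). Ebf1 lay between 9.66 and 11.76 and was above background in all 8 tumours, unlike Rag2, the other RAG subunit, which was below it in all 8.

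Genes of other marrow lineages were examined beside the B precursors. Of 9 granulocyte precursor genes 0 were above background in all 8 tumours, 4 were above it in none, among them the granule protease gene Elane, and Prtn3, another granule protease gene, was above it in 4 tumours. The smallest p belonged to Ltf between models (0.16, SE 0.13, limma adjusted p = 0.767) and to S100a8 between sites (0.34, SE 0.18, adjusted p = 0.943). Ltf was above background in no tumour and S100a8 in 1. Of 4 erythroid genes 3 were above background in at least 1 tumour: Alas2, which starts haem synthesis in red cell precursors, in 6, the erythropoietin receptor gene Epor in 7 and the carbonic anhydrase gene Car1 in 5. Car1 had the smallest p between models (0.81, SE 0.39, limma adjusted p = 0.555) and Alas2 between sites (-0.65, SE 0.23, adjusted p = 0.764).

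Genes whose pattern over the 8 tumours was most like the mean of the 14 T and NK members above background were sought among 19908 genes by Pearson correlation. The 8 leading genes were Rnase6, H2-Eb1, Cd151, Ikzf3, H2-Ab1, Gpr18, Gimap3 and Phf11a, with correlations from 0.96 to 0.93. H2-Ab1, a chain of an MHC class II molecule, read 12.06, 10.65, 10.28 and 10.22 in shRNA OS and 10.03, 8.51, 10.40 and 10.79 in Cre:lox OS. It was chosen for its likeness, and 6 of the 14 members, Cd3g, Cd2, Cd8b1, Icos, Cd247 and Zap70, were above background in no tumour but shRNA OS replicate 1, Cre:lox OS replicate 4 or both. The corresponding genes for the 6 B members above background were Adam19, Slc4a11, Slc22a6, Il1a, Prr7, Celsr1, Agap2 and Calhm6, with correlations from 0.95 to 0.91. Of the 6 members, Vpreb3 had passed background by 0.0042, Vpreb1 by 0.031 at most and Pax5 by 0.16 at most. Among the leading genes, Slc22a6, Il1a and, for the T and NK members, Gimap3 read below the background level on every array. These correlations rest on 8 tumours, share arrays and were not tested.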

How the data were processed

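RNA of 8 tumours was hybridised to 1-colour arrays. The deposited log2 values are the authors' RMA output (robust multi-array averaging) per the submitters' processing notes, where mm9 is the build named. The sources used here give no versions or filters. Arrays carry no read depth, and their number limits the precision. Of 35556 probe sets, 21789 had 1 symbol in the platform annotation, 1621 had several and 12146 had no listed gene; the first kind was used, with the highest-mean probe set per gene (19938 genes). The members and gene lists were chosen with earlier results of these data known.

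Groups follow the model and the bone given in the labels. Replicate numbers follow accession order and carry no pairing. Tests used the lmFit and eBayes functions of limma 3.58.1 (R 4.3.3), fitted on all genes. P-values were adjusted by Benjamini-Hochberg and called under 0.05; the comparison of bones had the model as a covariate. The test was tried on simulated data. Means per class, correlations and background calls are descriptions. All members were named; in each further list the gene with the smallest p was named, and further genes were named by likeness (8 per class), leaving out unnamed transcripts, receptor segments, Y-linked genes and Xist. Promoter sequences are from RefSeq (GRCm38.p6), used for no coordinates of the files. Alternatives were other normalizations, a filter on dim genes, other probe sets, variance models, covariates and subsets of tumours.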

Additional observations from a re-analysis of the deposited data

Results flagged for a closer look

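In each model and among the 5 tibial tumours, the most distant tumour was set against its nearest neighbour for the 30 members and 4 summary measures by Dixon's criterion. Of 102 such tests 3 stood out, where chance gives about 1 in 20, or 5.1. Cd3e was 6.92 in Cre:lox OS replicate 2, below the next Cre:lox OS tumour at 7.29. Zap70 was 5.94 in shRNA OS replicate 3, below the next shRNA OS tumour at 6.43 and below background in both. Dntt was 5.55 in Cre:lox OS replicate 3, above the next tibial tumour at 5.16, with both below background.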

How the results depend on the processing

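No paired analysis was possible because the replicate numbers only follow accession order. The count of members that passed limma's test stayed at 0 between models under 21 alternatives and between bones under 20, with lowest adjusted p values of 0.227 and 0.395. At an unadjusted p under 0.05, the count of 1 between models ranged from 0 (without dim genes, or in tibial tumours only) to 4 (without shRNA OS replicate 1), and the count of 0 between bones reached 4 with array weights and 3 without shRNA OS replicate 2. The sign of the difference held under all alternatives run for 16 of 30 members between models and 18 of 30 between bones. T and NK minus B moved by more than the spread between replicates when the median replaced the mean (0.24 in shRNA OS replicate 1 and -0.105 in replicate 3). It moved likewise in shRNA OS replicate 2, to -0.088, without Il7r, Cd4, Blnk, Rag1 and Dntt. The count of 20 members above background became 23 at the 90th and 9 at the 99th percentile of the receptor genes, and 19 to 20 on leaving out 1 tumour. The receptor-gene median as a covariate, a filter on background and subtraction of that median were chosen after seeing the data. Members near background are limited by signal: 10 of 30 never passed it.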

Other observations

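Among lymphocyte genes outside the members, named here after their values were seen, Ccl5, which encodes a chemokine of T and NK cells, read 9.88, 8.75, 8.07 and 8.60 in shRNA OS and 8.63, 8.16, 8.45 and 10.08 in Cre:lox OS, by replicate number. Il2rb, the interleukin 2 receptor beta chain, was above background in the tumours where Ccl5 was highest, at 7.46 in shRNA OS replicate 1 and 7.16 in Cre:lox OS replicate 4, and in no other. Jchain, which joins the antibodies secreted by plasma cells, read 7.49, 6.71, 6.35 and 6.85 in shRNA OS and 5.95, 5.69, 5.83 and 7.07 in Cre:lox OS. It was above background in shRNA OS replicates 1 and 4 and in Cre:lox OS replicate 4. These 3 genes were picked for that pattern. Counting them, 5 of 26 other T and NK genes and 3 of 17 other B and plasma cell genes had it. Of those, Cd27, Txk and Gzmk were above background in no tumour. Cd28, a costimulatory receptor of T cells that was above background in all 8 tumours, ran otherwise, with 7.91, 7.90, 7.51 and 7.02 in shRNA OS and 9.63, 8.79, 7.15 and 6.86 in Cre:lox OS.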
